A study of Mus musculus with 2 samples.

Results

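The genes described here are *Serpina3n*, *Hp*, *Steap4*, *C3* and *Saa3*, 5 acute-phase or inflammation-induced genes of the 31054 features in the scRNAseq of the early rib callus. They were chosen by measured values of these same libraries, because their counts of unique molecular identifiers (UMIs) were lower in fibroblast-type cells of the *Smo* cKO library than in those of the control library, so the difference between the libraries in these cells is a description and supports nothing further. Callus was collected at 4 dpi after a large rib resection, and the cells of 3 animals were pooled into 1 library for each genotype. Controls were *Sox9*:CreER;*R26*:tdT;*Smo*f/+ and *Smo* cKO animals were *Sox9*:CreER;*R26*:tdT;*Smo*f/f, both carrying the tamoxifen-inducible Cre, the tdTomato reporter and at least 1 floxed *Smo* allele, and both given tamoxifen before surgery. *Smo* can therefore be lost only in cells that had expressed *Sox9* and in their descendants, while all other cells of the *Smo* cKO callus keep it. With 1 library for each genotype there is no replicate check, no test of genotype was made, and every interval below is a 95% interval that covers counting error only.

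Acute-phase genes are those whose products rise quickly after infection or wounding. They are best known from the liver, where interleukin-6 family cytokines act through STAT3 and interleukin-1 and tumor necrosis factor act through NF-kB and C/EBP factors, but fibroblasts, fat cells and myeloid cells use the same genes at sites of damage. *Serpina3n* encodes a secreted inhibitor of serine proteases, *Hp* encodes haptoglobin, which binds free hemoglobin, *Steap4* encodes a membrane reductase of iron and copper, *C3* encodes the central component of the complement cascade, and *Saa3* encodes a serum amyloid A protein that is made mainly outside the liver.

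Both libraries were of similar depth, with 105367110 UMIs in 10747 barcodes of the control and 112700220 UMIs in 10512 barcodes of the *Smo* cKO library. Of these, 10057 and 9507 cells had at least 200 detected genes and less than 10% of UMIs on mitochondrial genes, and 6591 and 5252 of them were gated as connective from 10 markers such as *Col1a1*, *Dcn*, *Pdgfra* and *Postn*. The connective-gated cells held a median of 10911 UMIs in control and 13393 in *Smo* cKO. Since these markers set the gate, they are no check of the fibroblast label, and the gate is called connective here. It was not uniform, as 4 of its 10 sub-clusters were led by immunoglobulin genes (6.21% of control and 3.87% of *Smo* cKO gated cells), macrophage genes (4.32% and 3.85%), muscle genes (2.14% and 3.05%) or hemoglobin genes (0.106% and 3.81%). Of all barcodes, 613 were present in both libraries, and in 599 pairs that passed the filters the deeper cell held a median of 35732 UMIs and the shallower 641, with 77.6% of the pairs gated alike. Without these barcodes the log2 ratios of *Smo* cKO over control described below were −2.52 for *Serpina3n*, −2.49 for *Hp*, −1.58 for *Steap4*, −1.997 for *C3* and −1.64 for *Saa3*. *Smo* itself was at 19.2 CPM (UMIs of the gene per 1000000 UMIs of the cells) in control and 12.5 CPM in *Smo* cKO connective-gated cells, but tags from the 3′ end of a transcript do not show whether the floxed exon was removed.

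The stretches just upstream of the members are shown because the 5 genes were lower together, and capitals mark matches to binding motifs of the factors named above. The motifs searched on both strands were GGG, any 2 bases, TT, any 1 base and CC for NF-kB, TTGCNNAA for C/EBP and TTCNNNGAA for STAT. They are taken from the RefSeq promoter table of GRCm38.p6, written 5′ to 3′ on the strand of the gene, run from 250 bases before the RefSeq start, and stop before the first annotated exon of a protein-coding gene. The table holds 4 of the 5 members, and *Hp* has no entry.
Serpina3n, chr12:104406458-104406707, plus strand: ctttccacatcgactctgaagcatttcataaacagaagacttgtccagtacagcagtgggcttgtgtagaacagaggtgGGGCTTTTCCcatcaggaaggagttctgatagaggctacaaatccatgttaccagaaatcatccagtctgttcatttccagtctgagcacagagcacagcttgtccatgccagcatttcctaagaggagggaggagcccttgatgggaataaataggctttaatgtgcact
Steap4, chr5:7960222-7960456, plus strand: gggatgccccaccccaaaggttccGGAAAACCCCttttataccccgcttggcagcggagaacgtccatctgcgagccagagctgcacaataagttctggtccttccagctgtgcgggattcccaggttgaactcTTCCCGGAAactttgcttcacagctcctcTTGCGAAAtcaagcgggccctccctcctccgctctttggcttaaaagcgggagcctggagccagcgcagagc
C3, chr17:57228137-57228386, minus strand: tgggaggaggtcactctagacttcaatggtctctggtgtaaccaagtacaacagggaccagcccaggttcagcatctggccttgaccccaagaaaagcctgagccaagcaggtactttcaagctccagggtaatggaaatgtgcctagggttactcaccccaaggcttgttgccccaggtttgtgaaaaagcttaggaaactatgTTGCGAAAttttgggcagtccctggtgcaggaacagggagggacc
Saa3, chr7:46715701-46715926, minus strand: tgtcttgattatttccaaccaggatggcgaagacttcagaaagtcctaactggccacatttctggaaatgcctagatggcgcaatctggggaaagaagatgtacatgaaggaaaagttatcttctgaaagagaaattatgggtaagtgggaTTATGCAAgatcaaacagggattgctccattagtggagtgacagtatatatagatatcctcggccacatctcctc
The *Serpina3n* stretch held 1 NF-kB match, GGGCTTTTCC, and no match to the other motifs. That of *Steap4* held 1 match to each of the 3 motifs, the NF-kB match being on the reverse strand. *C3* and *Saa3* each held 1 C/EBP match, TTGCGAAA in *C3* and TTATGCAA on the reverse strand in *Saa3*. None of these matches overlapped another. Among all 32851 promoters of the table, cut to the same 250 bases, 4.11% held the NF-kB motif, 9.56% the C/EBP motif and 7.02% the STAT motif. A match is a run of letters and is not a measured binding site.

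All 5 members are protein-coding genes, and on GRCm38 they lie on different chromosomes. *Serpina3n* (ENSMUSG00000021091) spans chr12:104406729-104414329, *Hp* (ENSMUSG00000031722) chr8:109575128-109579172, *Steap4* (ENSMUSG00000012428) chr5:7960457-7982213, *C3* (ENSMUSG00000024164) chr17:57203970-57228136 and *Saa3* (ENSMUSG00000040026) chr7:46711998-46715700.

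*Serpina3n* had the largest difference of the members in connective-gated cells. Its level was 35.8 CPM (34.6 to 37.1) in the control, from 3051 UMIs, and 5.99 CPM (5.47 to 6.56) in *Smo* cKO, from 477 UMIs, a log2 ratio of −2.58 (−2.72 to −2.44). At least 1 UMI was found in 21.5% of cells in control and 5.92% in *Smo* cKO. *Serpina3n* sits in a family of closely similar genes, and reads could have been split among them. Of 9 other *Serpina3* genes in the feature list, *Serpina3g* was the 1 at 10 CPM or more, at 19.1 and 12.4 CPM (log2 ratio −0.62, −0.74 to −0.51, and −2.36, −3.20 to −1.62, with at most 2000 genes per cell).

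*Hp* was at 119 CPM (117 to 122) in control and 22.2 CPM (21.1 to 23.2) in *Smo* cKO, from 10158 and 1763 UMIs. The log2 ratio was −2.43 (−2.50 to −2.36), and the share of cells with a UMI was 32.1% against 12.3%. *C3* was at 126 CPM (124 to 129) and 30.4 CPM (29.2 to 31.7), a log2 ratio of −2.05 (−2.12 to −1.99). It was the member found in most control cells, 43.4% against 17.5% of *Smo* cKO cells.

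*Saa3* and *Steap4* had the smaller differences. *Saa3* was at 178 CPM (176 to 181) in control and 54.2 CPM (52.6 to 55.8) in *Smo* cKO, a log2 ratio of −1.72 (−1.77 to −1.67), and was found in 27.2% and 10.9% of cells. *Steap4* was at 36.3 CPM (35.0 to 37.6) and 12.0 CPM (11.3 to 12.8), a log2 ratio of −1.59 (−1.70 to −1.49), and was found in 27.99% and 13.005% of cells. The intervals of the 2 libraries did not overlap for any member. They cover counting error only, and the share of all genes with intervals that do not overlap was not counted. Nothing is read from it for the members, which this contrast chose. Levels are per UMI total and not per length of the gene, so they are compared within a gene only.

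Among 2559 genes at 50 CPM or more in at least 1 library, 4 (0.156%) had at most 0.5 of the control CPM in *Smo* cKO, namely *Hp*, *C3*, *Saa3* and *Clec3b*, while 19 (0.742%) were at least 2-fold higher. *Serpina3n* and *Steap4* were below 50 CPM in both libraries. At a limit of 10 CPM, 18 of 7290 genes (0.247%) were lower and all 5 members were among them, on ranks 2, 4, 5, 7 and 9 from the lowest ratio. The other genes on ranks 1 to 8 were *Chl1* (rank 1), *Igkc* (rank 3), *Mmp3* (rank 6) and *Ace* (rank 8). Since this contrast chose the members, nothing is read from their place in it.

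The same shares were read at equal depth, after each cell was thinned to 3000 UMIs and the 564 control and 424 *Smo* cKO cells with fewer UMIs were left out. *Serpina3n* was then found in 10.4% (9.61 to 11.2) of 6027 cells in control and 2.05% (1.67 to 2.49) of 4828 in *Smo* cKO. *Hp* was found in 17.2% and 4.00%, *C3* in 25.98% and 7.52%, *Saa3* in 14.9% and 4.598%, and *Steap4* in 11.7% and 3.71%. All 5 shares were lower in *Smo* cKO with and without thinning. The members were chosen by this contrast, and lower shares over all genes were not counted, so nothing is read from this number.

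T or NK cells, which should lack these transcripts, gave the level of free RNA. In 48 control and 114 *Smo* cKO T or NK-gated cells, with median depths of 1473 and 1706.5 UMIs, *Serpina3n* and *Steap4* had no UMI, which allows shares of up to 6.25% and 2.63%. *Hp* had 3 UMIs and 1 UMI, *C3* had 1 and 1, and *Saa3* had 1 and 0. At 1000 UMIs per cell, *C3* was found in 13.4% (12.6 to 14.3) of control connective-gated cells and 2.38% (0.06 to 12.6) of 42 control T or NK-gated cells. In *Smo* cKO connective-gated cells the shares at this depth were 0.77% for *Serpina3n*, 1.85% for *Hp*, 1.36% for *Steap4*, 3.85% for *C3* and 2.33% for *Saa3*. All lay within the intervals of 106 *Smo* cKO T or NK-gated cells. Those intervals are wide because the cells are few, so this comparison cannot separate the shares from background. In control, *Serpina3n* (4.50%, against 0 to 8.41% in T or NK-gated cells), *Hp* (7.84%, against 0.58 to 16.2%) and *Steap4* (4.57%, against 0 to 8.41%) also lay within them, while *C3* and *Saa3* (8.75%, against 0 to 8.41%) were above. Macrophage or monocyte-gated cells were more numerous, 1106 and 1606 at this depth. There *Serpina3n* was found in 0% (up to 0.33% and 0.23%) and *Steap4* in 0.09% (up to 0.50%) and 0.25% (up to 0.64%), below the connective-gated shares in both libraries. *Hp* (2.30%) and *Saa3* (5.04%) were not below them in *Smo* cKO.

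The transcripts were held by a minority of cells, and by a smaller minority in *Smo* cKO. A gene with fewer UMIs is found in fewer cells, which by itself raises the share held by its top cells. The libraries were not compared at equal UMI totals of a gene, so the shares below are descriptions. For *Saa3*, the top 1% of connective-gated cells held 37.1% of its UMIs in control and 68.9% in *Smo* cKO, and 50% of its UMIs lay in 116 of 6591 and 27 of 5252 cells. A single cell reached 297 UMIs of *Saa3* in control and 261 in *Smo* cKO. The number of cells with 10 or more UMIs was 370 against 87. *Hp* was also uneven, with 29.7% and 45.4% of UMIs in the top 1% of cells and a highest cell of 128 against 74 UMIs. The number with 10 or more UMIs of *Hp* was 254 against 32, and for *C3* it was 243 against 41. *Steap4* and *C3* were the most evenly spread in the control, with 11.9% and 12.02% of UMIs in the top 1% of cells. Without the top 1% of cells for each gene, the log2 ratios were −2.95 for *Serpina3n*, −2.79 for *Hp*, −2.33 for *C3*, −2.74 for *Saa3* and −1.71 for *Steap4*. The ratio of *Saa3* moved furthest when these cells were left out.

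**Figure D1:**
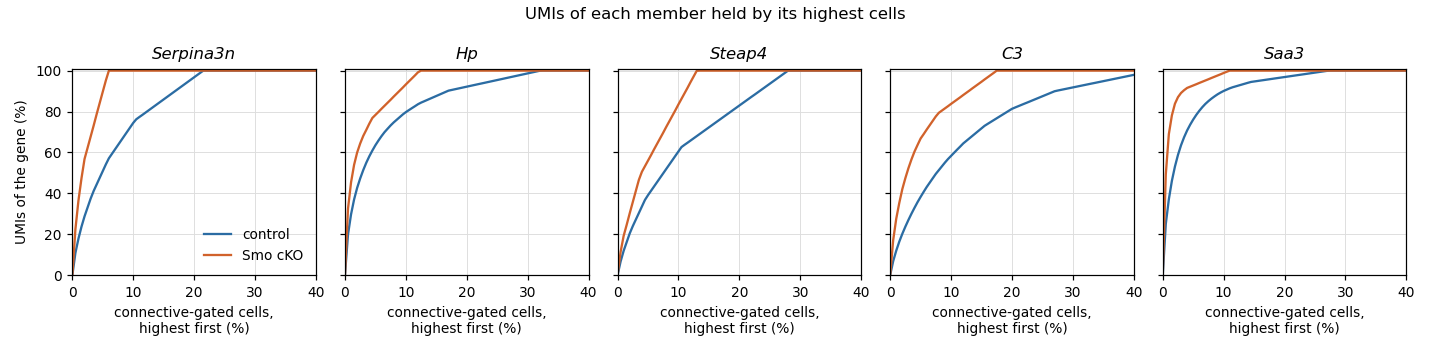
Cumulative share of the UMIs of each member (y axis, %) against the share of connective-gated cells ordered from the highest count (x axis, %), with 1 line for each library. The *Smo* cKO line lies above the control line in all 5 panels, and the steepest is *Saa3*, for which the top 1% of cells held 37.1% of UMIs in control and 68.9% in *Smo* cKO. The lines were not compared at equal UMI totals of a gene.

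The members were then read in the sub-clusters of the connective-gated cells, which were made with the members and the related gene lists kept out of the variable genes. Sub-cluster 1, led by *C3*, *Saa3*, *Eln*, *Serpina3n* and *Clec3b*, held 30.2% (29.1 to 31.3) of control and 8.95% (8.19 to 9.75) of *Smo* cKO connective-gated cells. Sub-cluster 3, led by *Sfrp1*, *Cfd*, *Mfap4* and *Eln*, held 9.66% (8.96 to 10.4) and 20.3% (19.2 to 21.4). Other leading genes of sub-cluster 1, such as *Clec3b*, also differed between the libraries and were not kept out, so these shares are descriptions. These 2 sub-clusters had the highest control levels of all 5 members, and the cells of lower level were sub-cluster 0, led by *Ass1*, *Tnc* and *Inhba*, sub-cluster 2, led by cell cycle genes, and sub-cluster 4, led by the bone and cartilage genes *Bglap*, *Ibsp* and *Acan*.

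Within sub-cluster 1 the levels were also lower in *Smo* cKO, by unequal amounts. *Serpina3n* was at 111 against 32.5 CPM, a log2 ratio of −1.77 (−2.08 to −1.48). *Hp* was at 177 against 54.7 CPM (−1.69, −1.93 to −1.47), and *Steap4* was at 104 against 41.5 CPM (−1.33, −1.60 to −1.07). These 3 genes kept differences of more than 2-fold, but the share of all genes past 2-fold was not counted in this sub-cluster. *C3* was at 446 against 245 CPM (−0.86, −0.97 to −0.76), and *Saa3* at 533 against 450 CPM (−0.24, −0.33 to −0.16), a small difference in CPM. The share of these cells with a *Saa3* UMI was 33.6% against 10.6%. At 3000 UMIs per cell it was 26.3% (24.3 to 28.3) against 8.92% (6.26 to 12.2). The 1398 *Saa3* UMIs of *Smo* cKO lay in 50 of 470 cells, with 261 in 1 cell.

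Within sub-cluster 3 the differences were larger. *Hp* was at 277 against 40.3 CPM, a log2 ratio of −2.78 (−2.92 to −2.65), *Serpina3n* at 66.7 against 12.0 CPM (−2.47, −2.74 to −2.22) and *Saa3* at 271 against 63.0 CPM (−2.10, −2.22 to −1.99). *C3* was at 181 against 58.5 CPM (−1.63, −1.76 to −1.50) and *Steap4* at 49.3 against 19.3 CPM (−1.35, −1.59 to −1.12). All 5 members were thus down at least 2-fold in CPM in this sub-cluster, which had more cells in *Smo* cKO. The share of all genes past 2-fold was not counted there either, so nothing is read from the number of members. In sub-clusters 0, 2 and 4 all 5 members were lower as well, with log2 ratios from −0.83 for *Steap4* in sub-cluster 2 to −3.73 (−6.83 to −1.78) for *Serpina3n* in sub-cluster 4, where it had 39 against 2 UMIs.

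With the *Smo* cKO levels weighted to the mix of sub-clusters in the control, the log2 ratios were −1.98 for *Serpina3n*, −2.20 for *Hp*, −1.23 for *Steap4*, −1.08 for *C3* and −0.74 for *Saa3*. Of the 5 ratios, that of *Hp* moved least at an equal mix, and *C3* and *Saa3* moved most. Sub-cluster 9, led by *Serpinb2*, *Dlk1* and *Ly6c1*, had 118 cells in the *Smo* cKO and 0 in the control library, and its *Saa3* level was 275 CPM, with 32.2% of cells positive. Its *Hp* level was 12.1 CPM and its *C3* level 43.5 CPM.

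**Figure D2:**
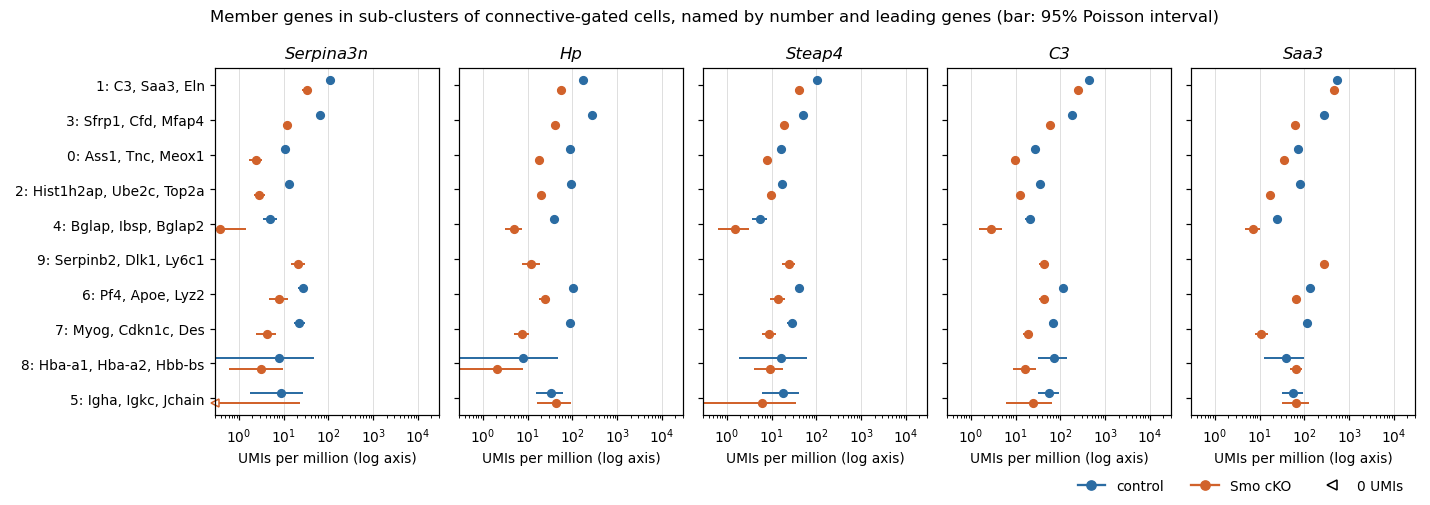
CPM of each member (x axis, log scale) in the sub-clusters of connective-gated cells (y axis, number and 3 leading genes), with points for the control and *Smo* cKO libraries and bars for 95% Poisson intervals. In sub-clusters 1, 3, 0, 2 and 4 the *Smo* cKO point lies to the left of the control point for every member, with the smallest gap for *Saa3* in sub-cluster 1 (533 against 450 CPM). The share of cells with a *Saa3* UMI there was 33.6% against 10.6%.

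Sub-clusters 6, 7 and 8 were led by genes of macrophages, muscle and red cells, and sub-cluster 5 by immunoglobulin genes at a median of 647 UMIs. Leaving these 4 out gave log2 ratios of −2.60 for *Serpina3n*, −2.39 for *Hp*, −1.58 for *Steap4*, −2.07 for *C3* and −1.71 for *Saa3*, close to those with all cells. Markers of other sources of these transcripts were low in connective-gated cells. These marker lists also took part in the gate, so their low levels were in part set by it and are no independent check. The 6 hepatocyte markers summed to 1.2 CPM in control and 1.1 CPM in *Smo* cKO, with 3 of 6 at 0 in each, and no cell was gated as a hepatocyte. The 8 neutrophil markers summed to 83.6 and 79.4 CPM, against 269105 CPM in control neutrophil-gated cells. The 6 adipocyte markers summed to 26.3 and 18.2 CPM with 1 of 6 at 0, and the 10 macrophage markers to 149.9 and 201.5 CPM. The part of these low levels in the member ratios was not tested.

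The members were also read for detection together in the same cells. At 3000 UMIs, 2 or more members were found in 1302 of 6027 control cells, 21.6% (20.6 to 22.7), and in 186 of 4828 *Smo* cKO cells, 3.85% (3.33 to 4.43). The difference was −17.8 percentage points (−18.9 to −16.6). This share depends on the shares of the single members, which were chosen as lower in *Smo* cKO, so the difference is a description. All 5 were found together in 32 control cells and 1 *Smo* cKO cell, and none was found in 54.2% and 83.3%.

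Each of the 10 pairs was seen together more often than the product of its shares, by 1.54 to 2.57 times in the control. *Serpina3n* and *Steap4* had the highest ratio, with 189 cells against 73.4, and *Hp* and *C3* the lowest, with 414 against 269. Of cells with *Serpina3n*, 61.0% also had *C3*, and of cells with *C3*, 24.3% had *Serpina3n*. In the *Smo* cKO library the pairs were together in 12 to 59 cells, 2.66 to 5.30 times the product of shares. The single shares were lower there, and the ratios were not compared between libraries at equal shares. Differences between sub-clusters enter these ratios, and within sub-cluster 1 of the control they were 1.20 to 1.95, with *Hp* and *Saa3* the highest pair. The ratios of other pairs of genes were not counted, so nothing is read from the number of member pairs above their product.

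**Figure D3:**
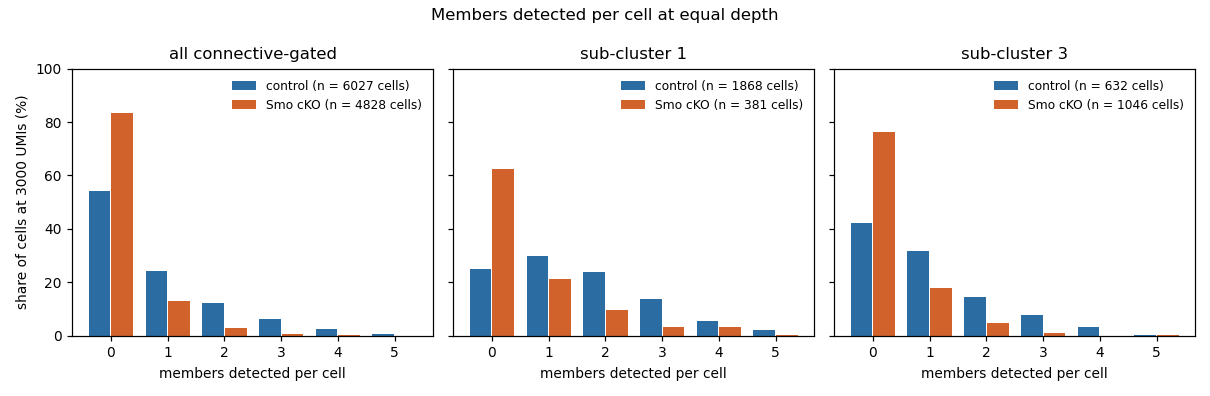
Share of cells (y axis, %) by the number of members detected (x axis, 0 to 5) after thinning to 3000 UMIs, for all connective-gated cells, sub-cluster 1 and sub-cluster 3, with 1 bar for each library. The share with 2 or more members in sub-cluster 1 was 45.2% of 1868 cells in control and 16.3% of 381 in *Smo* cKO, and in sub-cluster 3 the shares were 25.9% of 632 and 5.74% of 1046.

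*Cxcl12*, a chemokine of marrow and adventitial stroma, marked cells with more members. In the control, 2 or more members were found in 39.9% (37.6 to 42.3) of cells with *Cxcl12* and 14.3% (13.3 to 15.4) of cells without it. In the *Smo* cKO library the shares were 7.38% (5.90 to 9.09) and 2.82% (2.31 to 3.40). Over all connective-gated cells, the share in *Smo* cKO cells with *Cxcl12* was below that in control cells without it. The mix of sub-clusters differed between the libraries and enters this comparison. Within sub-cluster 1 these shares were 30.6% and 35.2%, and within sub-cluster 3 they were 12.4% and 16.7%. Their intervals overlapped in both sub-clusters, so the difference was not resolved there. Cells with a tdTomato UMI were few, 49 and 114, and in them *C3* was at 91.4 against 19.6 CPM (log2 ratio −2.22, −2.79 to −1.67) and *Serpina3n* at 9.14 against 5.42 CPM (−0.75, −2.18 to 0.81). *Hp* was at 62.7 against 41.3 CPM (−0.60, −1.11 to −0.07), *Steap4* at 26.1 against 8.35 CPM (−1.65, −2.62 to −0.68) and *Saa3* at 187 against 42.6 CPM (−2.13, −2.51 to −1.76), with 121 of the 143 control *Saa3* UMIs in 1 cell. In cells without a tdTomato UMI the log2 ratios were −2.04 for *C3*, −2.59 for *Serpina3n*, −2.47 for *Hp*, −1.58 for *Steap4* and −1.71 for *Saa3*. The difference between the cells with and without a tdTomato UMI was not tested. A missing tdTomato UMI does not show that a cell lies outside the *Sox9* lineage at this depth.

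Outside the connective gate each member had its own pattern. The share of genes at 50 CPM or more that were at least 2-fold lower or higher in *Smo* cKO differed between classes, and the member ratios there are read against it. It was 0.241% lower and 1.84% higher in macrophage or monocyte-gated cells, 11.5% and 8.46% in neutrophil-gated cells, and 6.44% and 5.37% in mesothelial or epithelial-gated cells. In endothelial-gated cells it was 0.924% and 2.67%, and in mural cells 3.33% and 5.11%. In dendritic-gated cells it was 0.573% and 2.91%, in osteoclast-gated cells 0.127% and 1.01%, and in muscle-gated cells 0.764% and 0.679%. Neutrophil and mesothelial or epithelial-gated cells thus had the most genes past 2-fold. Connective-gated cells held 95.02% of the *Serpina3n*, 88.9% of the *Hp*, 91.99% of the *Steap4*, 87.4% of the *C3* and 96.0% of the *Saa3* UMIs in the control, but 84.1%, 64.3%, 82.1%, 56.4% and 64.9% in *Smo* cKO.

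Among classes with cells in both libraries, *C3* was highest in the 18 control and 34 *Smo* cKO cells gated as mesothelial or epithelial, at 4876 CPM (4558 to 5210) and 2751 CPM (2603 to 2905), a log2 ratio of −0.83 (−0.95 to −0.70). Those cells held 7.11% of the *C3* UMIs in control and 29.9% in *Smo* cKO. In macrophage or monocyte-gated cells *C3* was at 45.0 and 24.3 CPM (−0.89, −1.24 to −0.55), and in neutrophil-gated cells at 137 and 133 CPM (−0.04, −0.87 to 0.84), a difference not detectable at this depth.

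Among the same classes *Hp* was highest in neutrophil-gated cells, which store haptoglobin in their granules, at 897 CPM (743 to 1075) in 82 control cells and 1350 CPM (1225 to 1485) in 113 *Smo* cKO cells (log2 ratio 0.59, 0.29 to 0.90). The share with an *Hp* UMI there was 67.1% and 87.6%, at median depths of 1145.5 and 1843 UMIs. At 1000 UMIs per cell it was 64% (49.2 to 77.1) of 50 control and 74% (64.3 to 82.3) of 100 *Smo* cKO cells, with overlapping intervals. In macrophage or monocyte-gated cells *Hp* was at 31.6 and 29.7 CPM (−0.09, −0.45 to 0.28). The direction in neutrophil-gated cells was opposite to that in connective-gated cells, and they held 1.03% of its UMIs in control and 15.5% in *Smo* cKO.

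*Saa3* differed most between classes. In mesothelial or epithelial-gated cells it was at 128 CPM (81.3 to 193) in control and 1654 CPM (1540 to 1775) in *Smo* cKO, a log2 ratio of 3.69 (3.09 to 4.36), although 44.4% and 44.1% of those cells were positive and 1 *Smo* cKO cell held 288 of its 774 UMIs. In macrophage or monocyte-gated cells it was at 55.03 CPM (47.2 to 63.8) and 112 CPM (103 to 121), a log2 ratio of 1.02 (0.78 to 1.27), with 7.71% and 9.21% of cells positive. At 1000 UMIs per cell the macrophage or monocyte shares were 3.80% (2.75 to 5.10) and 5.04% (4.03 to 6.23), with overlapping intervals. The CPM of *Saa3* was thus higher in *Smo* cKO in both of these classes and lower in connective-gated cells.

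*Steap4* was, among classes with cells in both libraries, highest in mural cells, the pericytes and smooth muscle cells of vessels, at 139 CPM (105 to 182) in 41 control and 87.9 CPM (62.2 to 121) in 35 *Smo* cKO cells (log2 ratio −0.66, −1.30 to −0.04). It was at 24.8 and 19.8 CPM in osteoclast-gated cells (−0.32, −0.90 to 0.24). *Serpina3n* had 7 and 9 UMIs in mesothelial or epithelial-gated cells and was higher in *Smo* cKO in endothelial-gated cells, at 19.98 CPM (11.4 to 32.5) and 56.3 CPM (41.3 to 74.8), a log2 ratio of 1.49 (0.65 to 2.41) from 16 and 47 UMIs. Among all cells, those of a cluster led by the lymphatic endothelial genes *Ccl21a*, *Mmrn1* and *Lyve1* had it at 54.7 and 118 CPM in 26 and 39 cells. The other endothelial cluster, led by *Fabp4* and *Emcn*, went the opposite way. It had 13 *Serpina3n* UMIs (20.2 CPM) in 48 control cells and 0 in 44 *Smo* cKO cells.

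**Figure D4:**
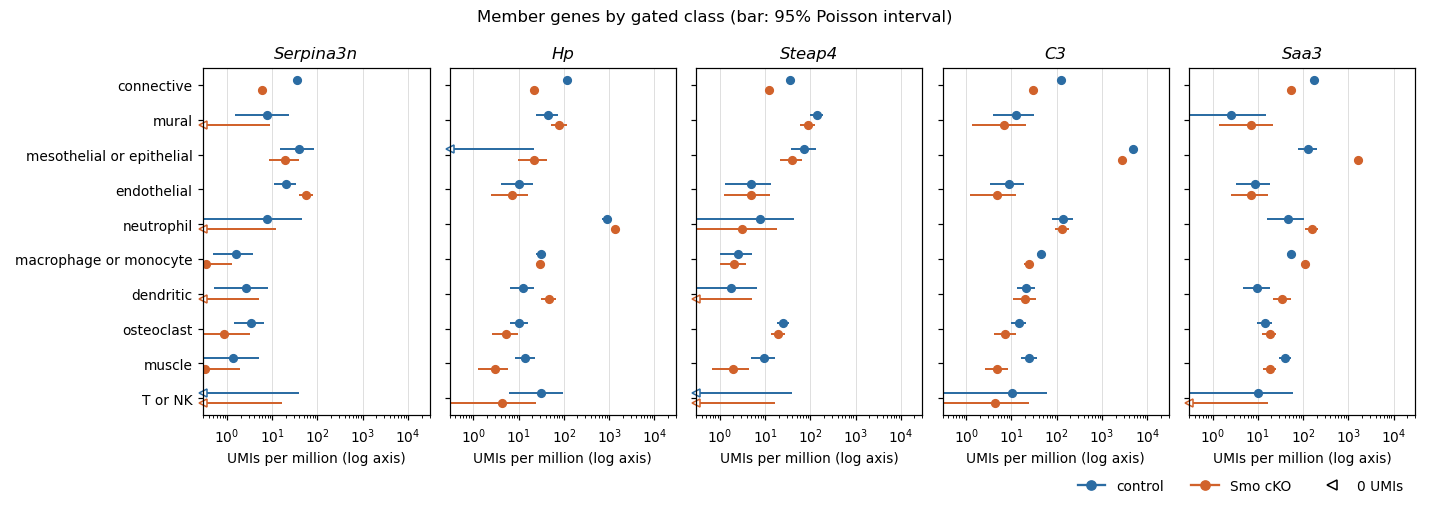
CPM of each member (x axis, log scale) in 10 gated cell classes (y axis), with points for the control and *Smo* cKO libraries, bars for 95% Poisson intervals and open triangles where no UMI was found. The connective row has the *Smo* cKO point to the left for all 5 members, while *Hp* in neutrophils (897 against 1350 CPM), *Saa3* in mesothelial or epithelial cells (128 against 1654 CPM) and *Serpina3n* in endothelial cells (19.98 against 56.3 CPM) have it to the right.

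With cells limited to at most 2000 genes, as in the original work, 1593 control and 913 *Smo* cKO connective-gated cells were left, with median depths of 4631 and 3225 UMIs. *Serpina3n* was then at 88.8 against 13.7 CPM (log2 ratio −2.70, −3.18 to −2.24), *Hp* at 162 against 29.0 CPM (−2.48, −2.81 to −2.16) and *Steap4* at 90.0 against 23.8 CPM (−1.92, −2.29 to −1.57). *C3* was at 486 against 156 CPM (−1.64, −1.79 to −1.50) and *Saa3* at 403 against 251 CPM (−0.68, −0.80 to −0.57). All levels were higher than without the limit in both libraries. With the limit, 11 of 2550 genes (0.431%) were at least 2-fold lower, 4 of them members, and 82 (3.22%) were at least 2-fold higher, with a median log2 ratio of 0.17 over all 2550 genes. At 10 CPM, 1.01% of genes were lower under this limit. *Saa3* was the member past 2-fold without the limit and short of it with the limit. The share of cells with 2 or more members at 3000 UMIs was 40.3% of 1029 control and 8.18% of 489 *Smo* cKO cells.

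Of 29 other acute-phase genes in the feature list, 8 were at 10 CPM or more in connective-gated cells, all 8 had a log2 ratio below 0, none was past 2-fold, and their median was −0.62 against 0.02 for all 7290 genes. The interval of *S100a9* (−0.05, −0.15 to 0.05) included 0. Below 10 CPM, *A2m*, a protease inhibitor, had 19 against 48 UMIs (1.43, 0.64 to 2.28), and *Il1rn*, the interleukin-1 receptor antagonist, was at 3.62 against 4.20 CPM (0.21, −0.01 to 0.44) and at a log2 ratio of 1.42 (0.40 to 2.47) in cells with at most 2000 genes. *Mt1* and *Mt2*, metallothioneins that bind zinc and copper, were at 2892 against 1783 CPM (−0.70, −0.71 to −0.69) and 2260 against 1337 CPM (−0.76, −0.77 to −0.75). *Ptx3*, a soluble pattern recognition protein, was at 186 against 120 CPM (−0.63, −0.67 to −0.60), and *Serping1*, the inhibitor of complement C1, at 376 against 248 CPM (−0.60, −0.63 to −0.58). *Cp*, the copper oxidase ceruloplasmin, was at 18.5 against 9.52 CPM (−0.96, −1.09 to −0.83). The liver genes *Crp*, *Apcs*, *Fga*, *Fgb*, *Serpina1a* and *Serpina1b* had no UMI in connective-gated cells of either library, and the *Saa3* relatives *Saa1* and *Saa2* had 16 and 5 UMIs in control and 9 and 1 in *Smo* cKO.

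Complement genes around *C3* were split. Of 20, 10 were at 10 CPM or more, 6 below and 4 above 0, with a median log2 ratio of −0.08 and none past 2-fold. *C1s1* and *C1ra*, proteases of the classical pathway, were at 70.2 against 39.2 CPM (−0.84, −0.90 to −0.78) and 21.7 against 14.1 CPM (−0.62, −0.73 to −0.52), and *C4b* at 16.8 against 9.50 CPM (−0.82, −0.95 to −0.69). *Cr1l*, a membrane regulator that limits *C3* activation, was at 25.4 against 28.6 CPM (0.17, 0.09 to 0.26). *Cfd*, the protease factor D of the alternative pathway, had a log2 ratio of −0.07 (−0.18 to 0.03), but of −2.78 (−4.26 to −1.60) in cells with at most 2000 genes and −0.66 (−0.80 to −0.53) in sub-cluster 3. *C1qb*, a macrophage product, had a log2 ratio of 0.26 (0.16 to 0.36) and, with that limit, of 1.62 (1.23 to 2.03). The iron genes listed with *Steap4* had a median of −0.26, with 8 of 12 at 10 CPM or more and none past 2-fold. *Fth1* was at 3775 against 3085 CPM (−0.29, −0.30 to −0.28), *Ftl1* at 4463 against 4612 CPM (0.05, 0.04 to 0.05), *Slc39a14* at 151 against 126 CPM (−0.26, −0.29 to −0.22), and *Hmox1*, which breaks down heme, at 328 against 228 CPM (−0.53, −0.55 to −0.50). Of its relatives, *Steap1* had a log2 ratio of 0.12, *Steap2* of −0.30 and *Steap3* of −0.23.

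Among the cytokines that induce acute-phase genes, *Il6* was at 106 CPM in control and 146 CPM in *Smo* cKO, a log2 ratio of 0.46 (0.42 to 0.50), which was −0.09 (−0.24 to 0.05) in cells with at most 2000 genes. *Lif*, of the same family, was at 42.4 against 75.5 CPM (0.83, 0.77 to 0.89) and had a log2 ratio of 1.23 (0.97 to 1.499) with that limit. *Il33* was at 124 against 142 CPM (0.19, 0.15 to 0.23) and *Il11* at 29.6 against 27.1 CPM (−0.12, −0.21 to −0.04), and with the limit their ratios were 0.10 (−0.07 to 0.28) and 0.54 (−0.01 to 1.09). Of 13 listed cytokines, 5 were at 10 CPM or more, 3 above and 2 below 0, with a median of 0.19 and none past 2-fold. *Il1b* had higher CPM in myeloid than in connective-gated cells, at 121 against 305 CPM (1.33, 1.18 to 1.497) in macrophage or monocyte-gated cells, where *Tnf* was at 159 against 153 CPM (−0.05, −0.21 to 0.11).

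Of 15 receptors, 14 were at 10 CPM or more, with a median log2 ratio of −0.17 and none past 2-fold. The signaling chain *Il6st* (103 against 104 CPM, 0.01, −0.03 to 0.06) and *Osmr* (63.9 against 62.1 CPM, −0.04, −0.10 to 0.01) had intervals that included 0, as had *Il1rl1*, the receptor of interleukin-33 (−0.00, −0.04 to 0.03), and *Tnfrsf1a* (0.03, −0.01 to 0.07). *Il1r1*, the receptor of interleukin-1, was at 95.6 against 64.6 CPM (−0.57, −0.62 to −0.52). In cells with at most 2000 genes the log2 ratios were −0.16 (−0.33 to 0.02) for *Il6st*, −0.33 (−0.55 to −0.12) for *Osmr*, −0.87 (−1.07 to −0.68) for *Il1rl1*, −0.02 (−0.21 to 0.17) for *Tnfrsf1a* and −1.16 (−1.37 to −0.95) for *Il1r1*. Of the transcription and feedback genes, *Stat3* was at 108 against 106 CPM (−0.03, −0.07 to 0.02) and its feedback target *Socs3* at 53.0 against 68.8 CPM (0.38, 0.32 to 0.43). *Nfkbia*, the NF-kB inhibitor that NF-kB induces, was at 823 against 1219 CPM (0.57, 0.55 to 0.58), and *Cebpd* at 95.6 against 135 CPM (0.50, 0.45 to 0.54). *Junb* was at 255 against 398 CPM (0.64, 0.62 to 0.67), *Nfkbiz* at 145 against 172 CPM (0.25, 0.22 to 0.29) and *Nfkb1* at 160.4 against 159 CPM (−0.01, −0.04 to 0.03). In the fibroblast inflammatory list, which holds chemokines and other genes, *Ccl2* was at 1240 against 2186 CPM (0.82, 0.81 to 0.83) and *Cxcl1* at 1470 against 2092 CPM (0.51, 0.50 to 0.52). *Ccl7* had a log2 ratio of 0.41 (0.39 to 0.42) and *Tnfaip6* of −0.00 (−0.02 to 0.01). The median of the 14 genes of this list was 0.13, with 6 below 0, 8 above 0 and none past 2-fold. With at most 2000 genes per cell, *Ccl7* turned to −0.15 (−0.21 to −0.10), *Tnfaip6* was at −0.28 (−0.35 to −0.21) and *Nfkb1* at −0.29 (−0.42 to −0.17), while *Ccl2* was at 0.31 (0.27 to 0.35), *Cxcl1* at 0.11 (0.07 to 0.15) and *Nfkbia* at 0.30 (0.24 to 0.36).

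**Figure D5:**
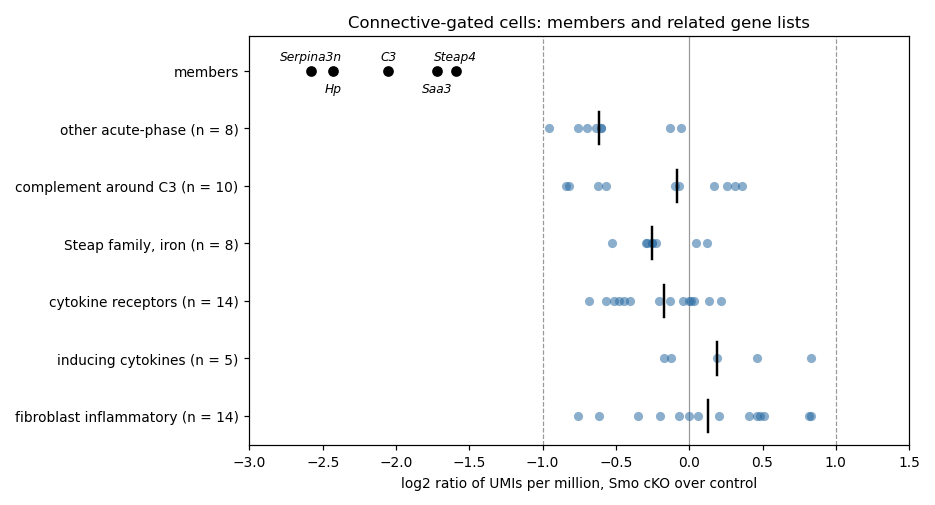
Log2 ratio of CPM, *Smo* cKO over control, in connective-gated cells (x axis) for the 5 members and the genes at 10 CPM or more of 6 related lists (y axis), with 1 point for each gene, a black bar for the median of a list and dashed lines at 2-fold. The members lie between −2.58 and −1.59, the other acute-phase genes have a median of −0.62, and the inducing cytokines have a median of 0.19.

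The related genes were also read in the 2 sub-clusters richest in members. In sub-cluster 1, *Il6* was at 226 against 285 CPM (0.34, 0.23 to 0.44), *Mt2* at 5343 against 3788 CPM (−0.50, −0.52 to −0.47), *Serping1* at 956 against 667 CPM (−0.52, −0.59 to −0.45) and *Il1r1* at 181 against 108 CPM (−0.74, −0.91 to −0.58). *Ptx3* and *Lbp* differed little there, with log2 ratios of −0.06 (−0.13 to 0.02) and 0.17 (−0.01 to 0.35), and *Nfkbia* was lower at −0.29 (−0.35 to −0.23). *Serpina3g*, of the *Serpina3n* family, was at 32.4 against 11.6 CPM (−1.49, −2.02 to −0.997) in this sub-cluster. In sub-cluster 3, *Il6* had a log2 ratio of 0.29 (0.15 to 0.42), *Nfkbia* of 0.03 (−0.00 to 0.07), *Lbp* of −0.41 (−0.58 to −0.23), *Serping1* of −0.46 (−0.51 to −0.40) and *Ptx3* of −0.65 (−0.74 to −0.57). *Il1r1* was there at −0.73 (−0.85 to −0.61), *Mt2* at −0.79 (−0.81 to −0.76), *Serpina3g* at −1.08 (−1.33 to −0.82) and *Cp* at −1.48 (−1.79 to −1.17), against −0.69 (−1.11 to −0.29) for *Cp* in sub-cluster 1. *Socs3*, higher over all connective-gated cells, had log2 ratios of −0.04 (−0.22 to 0.14) in sub-cluster 1 and −0.00 (−0.13 to 0.13) in sub-cluster 3. Those of *Cebpd* were 0.29 (0.14 to 0.44) and 0.07 (−0.03 to 0.16). Of the chemokines, *Cxcl12* had log2 ratios of −1.07 in sub-cluster 1 and −1.36 in sub-cluster 3, and *Cxcl5* of −0.56 and −1.09. Those of *Ccl2* were 0.68 and 0.51, of *Cxcl1* 0.21 and 0.10, of *Ccl7* 0.21 and 0.13, and of *Cxcl14* 0.26 and −1.03. *Cxcl12* was not lower in all sub-clusters. Its log2 ratios were 0.28 (0.20 to 0.36) in sub-cluster 0, 0.09 (0.01 to 0.17) in 2 and −0.04 (−0.27 to 0.18) in 4. In sub-clusters 6 and 7 they were −0.90 and −0.73.

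Across the 17 clusters of all control cells with at least 20 cells, the members were unequally alike. Pearson's r of log2(CPM + 10) was 0.75 for *C3* and *Saa3* and 0.75 for *Steap4* and *Saa3*, and 0.05 for *Hp* and *C3*. Clusters of 1 library share its depth and free RNA and are not replicates, so these values are descriptions. The genes most like each member were *Add3*, *Eln* and *Nfia* for *Serpina3n* (r from 0.81 to 0.85), *Stk38*, *Kctd20* and *Il6* for *Hp* (0.82 to 0.84), *Serping1*, *Cygb* and *C1s1* for *Steap4* (0.83 to 0.87), *Podn*, *Ildr2* and *Clec3b* for *C3* (0.89 to 0.90), and *Col14a1*, *Gpc3* and *Mt2* for *Saa3* (0.85 to 0.86).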

How the data were processed

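For each genotype, calluses of 3 animals made up 1 10x Chromium library. The authors aligned reads to mm10 with Cell Ranger 3.0.2, per the labels, and deposited raw UMI counts for each gene and cell, with no normalization. No column of the authors' comparisons was given, and the code of their filtering beyond the stated limits was not used here. The members and gene lists were chosen with earlier results of these data known.

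Cells with at least 200 genes and under 10% of UMIs on the "mt-" genes were kept. A class's marker CPM was divided by the mean of its 50 highest cells, and a cell was gated to the highest class if this reached 0.1, at least 3 markers were found and the next class was at most 0.5 of it. Macrophage, dendritic and osteoclast lists did not compete with each other. Cells without a class (10.0% of control and 13.2% of *Smo* cKO cells) or with 2 classes (1.44% and 1.88%) were left out of the classes. This gate was set after the data were seen. UMIs were summed over the cells of a class and divided by their total to give CPM. Ratios have exact intervals of 2 Poisson counts, and shares have Clopper-Pearson intervals. UMIs are molecules, and intervals cover counting error only. Where no UMI was found, 3 counts set the upper limit. Thinning drew 3000 UMIs per cell without replacement. Genes past 2-fold were counted at 50 CPM.

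Clusters came from Seurat 5.3.0 in R 4.3.3 (2000 variable genes without the members and their lists, 30 PCs, 20 neighbors, Louvain resolution 0.4). Scrublet in scanpy 1.11.5 marked 0 control and 2 *Smo* cKO cells as doublets and so did not work, and doublets were not removed. Other values used Python 3.11.15, numpy 2.4.6, scipy 1.17.1 and pandas 2.3.3. Coordinates come from GENCODE vM21 on GRCm38, and promoters from RefSeq.

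The genes named are the members, list genes past 2-fold at 50 CPM and up to 4 more of each list by summed UMIs, the 3 genes most like each member, and *Smo*, *Cxcl12* and tdTomato. *Cp*, *Lbp*, *Lcn2*, *C1ra*, *C4b*, *Osmr*, *Stat3*, *Socs3*, *Cebpd*, *Cd163*, *C3ar1*, *S100a9*, *A2m*, *Il1rn*, *Cxcl5*, *Cxcl14*, the genes listed at 0 or by rank, and the *Saa* and *Steap* relatives were named after their values were seen. A result of the transcription and feedback list is not reported here, and that list is given without its count and median. Alternatives were the 2000-gene limit, no mitochondrial filter, classes from clusters, scaling by the median gene, equal weight for cells, the control mix of sub-clusters, other depths, a 10 CPM floor and 4 cell exclusions added after seeing the data.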

Additional observations from a re-analysis of the deposited data

Results flagged for a closer look

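In 7 cases a member was higher in the *Smo* cKO library in another class, with an interval that did not include 0, while it was lower in connective-gated cells. *Saa3* had 4 of them, with log2 ratios of 3.69 in mesothelial or epithelial-gated, 1.82 in dendritic-gated, 1.77 in neutrophil-gated and 1.02 in macrophage or monocyte-gated cells. The *Saa3* counts behind these were 23 and 774, 11 and 26, 6 and 49, and 176 and 655 UMIs in control and *Smo* cKO cells. *Hp* had log2 ratios of 1.90 in dendritic-gated cells, from 14 and 35 UMIs, and 0.59 in neutrophil-gated cells, from 118 and 426 UMIs. In the dendritic cluster, led by *H2-Eb1* and *H2-Aa*, *Hp* had 4 and 2 UMIs (−0.56, −4.03 to 2.24). *Serpina3n* had a log2 ratio of 1.49 in endothelial-gated cells, from 16 and 47 UMIs, but 13 and 0 UMIs in the endothelial cluster led by *Fabp4* and *Emcn*. These differences between classes were not tested, since each library is 1 sample. The share of all genes that were higher by this interval rule was not counted. Pairs of a member and a class that were lower by it, such as *C3* in macrophage or monocyte-gated cells, were not counted either. Nothing is therefore read from the number of cases. The shares that follow use a different rule, 2-fold at 50 CPM, which the *Hp* ratio in neutrophil-gated cells did not pass. By that rule, 5.37% of genes were higher in mesothelial or epithelial-gated and 8.46% in neutrophil-gated cells. It was 2.91% in dendritic-gated, 2.67% in endothelial-gated and 1.84% in macrophage or monocyte-gated cells. The *Saa3* UMIs were concentrated, with 20 of 26 in 1 dendritic-gated cell and 30 of 49 in 1 neutrophil-gated cell of the *Smo* cKO library.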

How the results depend on the processing

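Under the 10 alternatives run for them, the member ratios in connective-gated cells ranged from −2.95 to −1.98 for *Serpina3n* and −2.79 to −2.20 for *Hp*. They ranged from −1.92 to −1.23 for *Steap4*, −2.33 to −1.08 for *C3* and −2.74 to −0.68 for *Saa3*. The members were chosen by this contrast and all alternatives use the same 2 libraries, so ratios below 0 throughout are no support. With at most 2000 genes per cell, the log2 ratios were −1.92 for *Steap4*, −1.64 for *C3* and −0.68 for *Saa3*, the genes at least 2-fold lower numbered 11, and the difference in the share with 2 or more members was −32.2 percentage points. That difference was −7.39 points at 1000 UMIs and −28.5 without thinning. With classes from clusters the log2 ratio was −2.52 for *Hp* and −2.12 for *C3*, and with scaling by the median gene it was −1.77 for *Saa3*. With equal weight for cells it was −1.74 for *Steap4*, −1.97 for *C3* and −1.38 for *Saa3*. At the control mix of sub-clusters it was −1.98 for *Serpina3n*, −2.20 for *Hp*, −1.23 for *Steap4*, −1.08 for *C3* and −0.74 for *Saa3*. Without shared barcodes it was −1.64 for *Saa3*, and without the top 1% of cells −2.95 for *Serpina3n*, −2.79 for *Hp*, −1.71 for *Steap4*, −2.33 for *C3* and −2.74 for *Saa3*. At a 10 CPM floor 18 genes were lower. The cause of these shifts was not tested. The planned removal of called doublets was not run, because too few were called. No paired analysis was possible because each genotype has 1 library.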

Other observations

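A further source of *Hp* was found in 4 control cells gated as adipocytes, at a median depth of 6654.5 UMIs. They held 552 *Hp* UMIs, 16986 CPM (15598 to 18464), with 234 in 1 cell, and 81 *C3* and 85 *Saa3* UMIs. The *Smo* cKO library had no cell in this gate. These 4 cells held 4.83% of the *Hp* UMIs of the control library.

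*Lcn2*, which encodes lipocalin 2, an iron-withholding acute-phase protein, was at 5102 and 8434 CPM in neutrophil-gated cells (log2 ratio 0.73, 0.60 to 0.85), at 6.15 and 4.61 CPM in connective-gated cells (-0.42, -0.61 to -0.22), and at 32.5 and 82.6 CPM in endothelial-gated cells (1.35, 0.68 to 2.06), where *Serpina3n* was also higher in the *Smo* cKO library. *Cd163*, the macrophage receptor that takes up complexes of haptoglobin and hemoglobin, was at 27.2 and 5.29 CPM in macrophage or monocyte-gated cells (-2.36, -3.002 to -1.75), from 87 and 31 UMIs. *C3ar1*, a receptor of the *C3* fragment C3a, was at 245 and 291 CPM in the same cells (0.25, 0.13 to 0.38).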
